A study of Mus musculus with 6 samples.

Results

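The genes described here encode the glutamate receptor subunits, the auxiliary proteins of AMPA receptors and the scaffolds of the excitatory postsynapse. They were taken by symbol from the platform annotation: ionotropic subunits (Gria, Grik, Grin and Grid genes), metabotropic receptors (Grm), TARP and related gamma subunits (Cacng2 to Cacng8), cornichons (Cnih), and the DLG, SAPAP (Dlgap), Homer and Shank scaffolds. Of 18193 genes with a value, 46 belonged to these families, 22 receptor genes, 11 auxiliary genes and 13 scaffold genes. Each gene was read on its brightest probe set, the one with the highest mean over all 6 arrays. Other genes of these families were not analysed here.

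Expression was measured on postnatal day 1 in C57BL/6 mice, in tissue that holds the subiculum and the retrosplenial cortex. There were 3 arrays of wildtype tissue and 3 of the corresponding tissue of D6/Zbtb20S transgenic littermates, which the labels call CA1-transformed, CA1 being a field of the hippocampus. Every array held RNA pooled from 7 animals, and the sources used here do not say whether pools of the same genotype shared litters. The p-values therefore cover the spread among these pools alone. Zbtb20 is a zinc finger repressor of transcription in developing hippocampal pyramidal neurons. The promoter of the transgene and the cells in which it is active are not given in the sources used here.

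AMPA, kainate and NMDA receptors are glutamate-gated channels built of 4 subunits, and the subunits present set a receptor's conductance, kinetics and calcium permeability. TARPs and cornichons accompany AMPA receptors to the surface and slow their closing. Metabotropic receptors act through G proteins, those of group I mostly postsynaptic and those of groups II and III mostly presynaptic. DLG, SAPAP, Shank and Homer proteins form a stack of scaffolds that ties NMDA receptors and group I metabotropic receptors together beneath the membrane. In the newborn cortex most excitatory synapses have yet to form, and the subunit make-up changes through the first weeks of life.

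Of marker genes listed for the dissected areas, 4 of 6 subiculum genes fell in transgenic arrays, and of 5 retrosplenial genes 3 fell and 1 rose. The lists were chosen with earlier results of these data known. Of 9 Zbtb20 probe sets 1 was called. It read 6.44, 5.84 and 7.64 in wildtype replicates 1, 2 and 3 and 8.88, 9.10 and 8.94 in the transgenic ones, and wildtype replicate 3 read highest of the wildtype arrays on every Zbtb20 probe set. Markers of other cells moved with genotype. All 11 measured microglial genes had positive differences and 4 rose, with a summed linear signal of 626 to 664 in wildtype and 817 to 945 in transgenic arrays. Of 10 oligodendrocyte genes 4 fell (1012 to 1198 against 735 to 816), and of 14 GABAergic genes 2 fell (2189 to 2369 against 2059 to 2131). Under the array median on every array lay 2 of these oligodendrocyte genes and 1 of the GABAergic ones. Of 9 pan-neuronal genes 2 fell, Snap25 (-1.03) and Elavl4 (-0.44), named after their values were seen, and the summed signal was 8144 to 8391 in wildtype and 6991 to 7511 in transgenic arrays. Of 7 glutamatergic neuron genes 1 rose and 2 fell, with overlapping summed signals of 1888 to 2200 and 1807 to 2168. Of 5 striatal genes 2 rose and all had positive differences, but 2 lay under the array median on every array. The summed striatal signals were 137 to 140 in wildtype and 157 to 175 in transgenic arrays, which did not overlap. Of 14 radial glia and astrocyte genes 1 fell, and of 12 endothelial and mural genes 1 fell. Of 5 thalamic genes 0 passed in limma (1 at an unadjusted p under 0.05), with overlapping summed signals of 83.7 to 109 and 88.4 to 103. Of 5 choroid plexus genes 0 passed in limma, also at an unadjusted p under 0.05, and 3 lay under the array median on every array. The part of these shifts in the results that follow was not tested. In bulk tissue, fewer cells of a type and less RNA per cell cannot be told apart.

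Of the 46 genes, 11 differed between genotypes at an adjusted p under 0.05. In transgenic tissue 5 rose and 6 fell. That is 23.9% of the 46, beside 7.71% of all genes tested. In the separate directions it is 10.9% higher and 13% lower, beside 4.06% and 3.64% of all genes. Cnih3, Grin3a, Grm5, Gria1 and Dlgap2 rose, and Grm2, Grik3, Gria4, Grm7, Dlg1 and Cacng4 fell. At least 2-fold, 3 rose (Cnih3, Grin3a and Grm5) and 2 fell (Grm2 and Grik3). That is 10.9% of the 46, beside 264 of all 18193 genes called at least 2-fold. The median difference over the 46 genes was 0.02 on the log2 scale, beside -0.02 over all genes. In 17 of the 46 genes (37.0%) the arrays of the genotypes did not overlap, beside 26.1% of all genes.

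**Figure D1:**
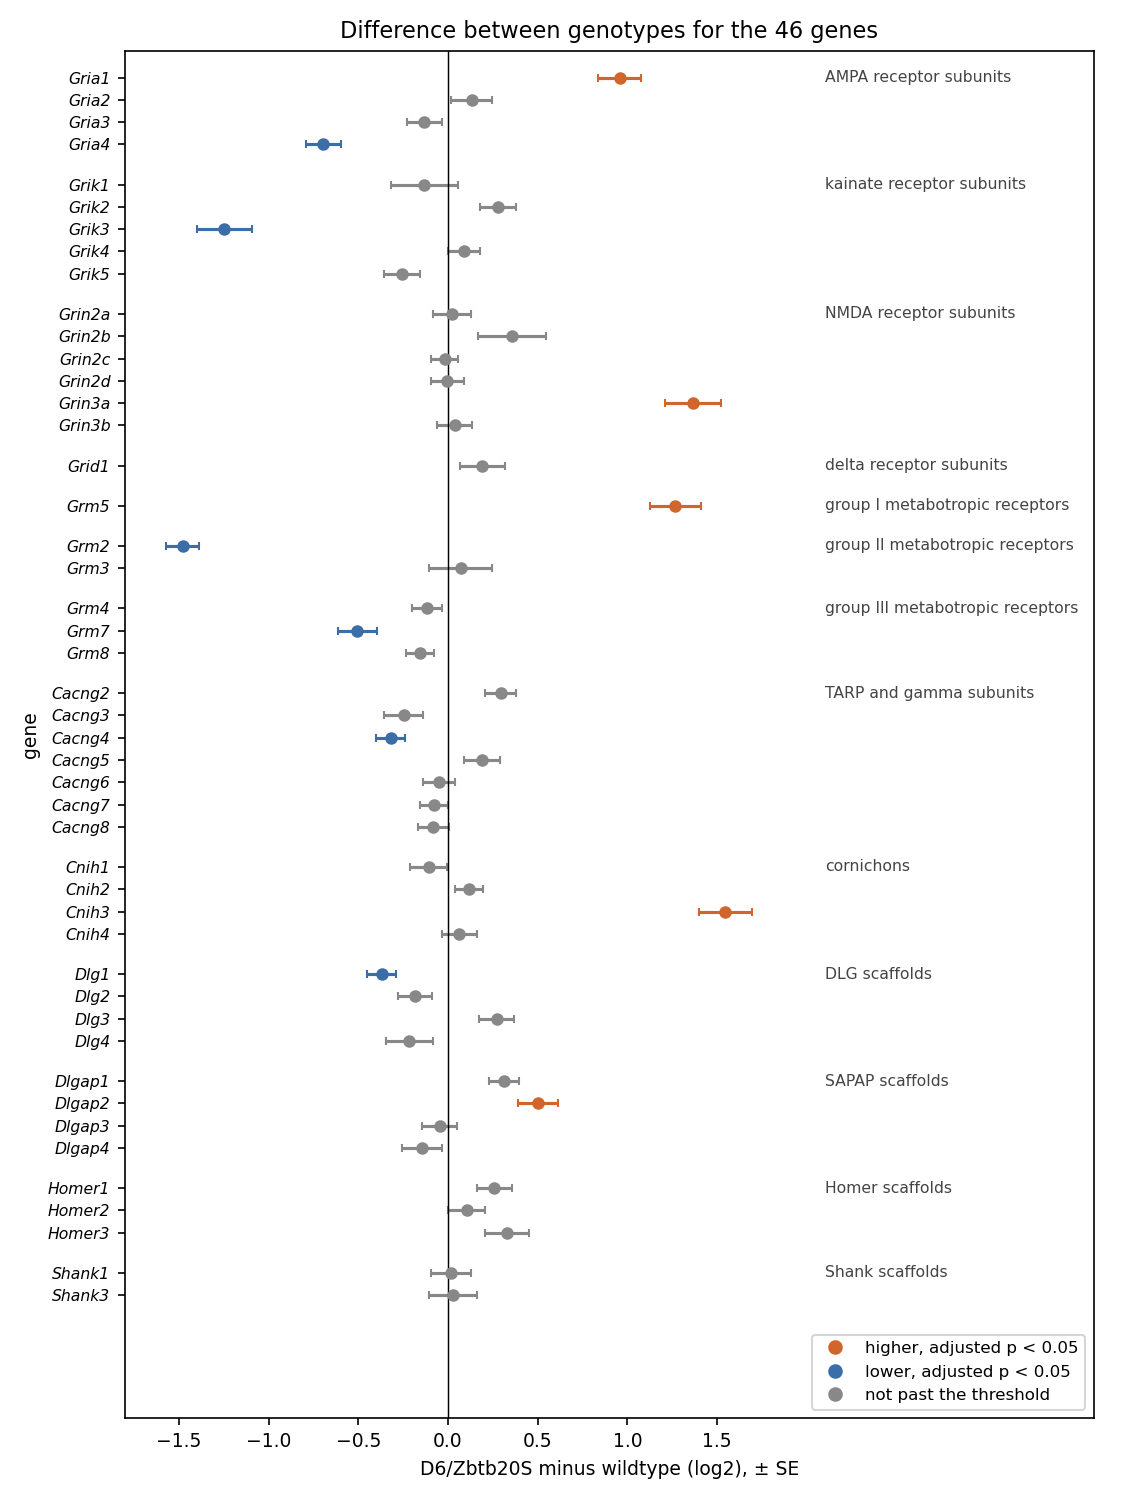
Difference between genotypes (D6/Zbtb20S minus wildtype, log2, horizontal axis) with its standard error for each of the 46 genes, grouped by family. The AMPA receptor family is the only one that holds more than 1 of the 11 genes past the threshold, and the delta, Homer and Shank families hold none.

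Promoter sequence is shown for the genes changed at least 2-fold that have exactly 1 entry in the RefSeq promoter table (build GRCm38.p6), namely Cnih3 among the rises and Grm2 and Grik3 among the falls. Each line gives the 250 bases before the gene's start, 5′ to 3′ on the gene's strand. Cnih3 lies at chr1:181352378-181352627 (+), Grm2 at chr9:106656110-106656359 (-) and Grik3 at chr4:125490446-125490695 (+). Capitals mark matches, on either strand, to common promoter elements, and neighbouring or overlapping matches run together. The elements searched were the GC box GGGCGG and the CCAAT box, by those 5 letters. The others were the TATA-type element, spelled TATAAA, and the cAMP response element, spelled TGACGTCA.
Cnih3: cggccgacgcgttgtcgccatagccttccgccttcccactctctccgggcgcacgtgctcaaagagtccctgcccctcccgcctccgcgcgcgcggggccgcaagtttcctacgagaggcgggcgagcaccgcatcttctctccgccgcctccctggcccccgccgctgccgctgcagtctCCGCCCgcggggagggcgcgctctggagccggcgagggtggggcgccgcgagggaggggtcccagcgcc
Grm2: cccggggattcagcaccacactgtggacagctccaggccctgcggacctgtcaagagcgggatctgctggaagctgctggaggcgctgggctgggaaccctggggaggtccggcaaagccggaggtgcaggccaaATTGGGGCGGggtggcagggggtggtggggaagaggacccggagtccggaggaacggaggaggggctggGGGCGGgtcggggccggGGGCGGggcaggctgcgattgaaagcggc
Grik3: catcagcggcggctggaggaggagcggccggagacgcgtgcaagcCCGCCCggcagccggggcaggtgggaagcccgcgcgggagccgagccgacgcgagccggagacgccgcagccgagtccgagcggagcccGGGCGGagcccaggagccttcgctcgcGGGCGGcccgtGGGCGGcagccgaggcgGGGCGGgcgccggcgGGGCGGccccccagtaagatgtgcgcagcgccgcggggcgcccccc
All 3 windows are rich in G and C (76.0%, 71.2% and 82.0% for Cnih3, Grm2 and Grik3) and hold 36, 16 and 42 CpG pairs, where the mean over all promoter windows is 9.86. The capitals are 1 GC box in Cnih3, 3 GC boxes and 1 CCAAT box in Grm2, and 6 GC boxes in Grik3. A GC box occurred in 32.7% of 32851 promoter windows, and a CCAAT box in 33.8%. The TATA-type element occurred in 12.4% and a cAMP response element in 1.55%, and neither is in the 3 windows shown. Over the 49 windows of the 34 genes of these families with an entry, the shares were 44.9% for the GC box, 24.5% for the CCAAT box, 8.16% for the TATA-type element and 0% for the cAMP response element.

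Of the 4 AMPA receptor subunit genes, read on their brightest probe sets, 1 rose, 1 fell and 2 did not pass. Gria1, whose subunit is prominent in hippocampal synaptic plasticity, read 7.14, 7.20 and 7.18 in wildtype and 7.90, 8.08 and 8.40 in transgenic arrays, here and in what follows as log2 signal in replicates 1, 2 and 3. All transgenic arrays lay above all wildtype arrays, with a gap of 0.70. Gria1 was 1.94-fold higher (0.96 ± 0.12 standard error, adjusted p = 0.000973), with group means of 7.17 ± 0.03 (SD, n = 3) and 8.13 ± 0.25 (SD, n = 3). Its other probe set rose as well, from 7.43, 7.17 and 7.43 to 7.78, 7.85 and 8.13 (0.58 ± 0.12, adjusted p = 0.0279 over all probe sets). Gria4, which encodes a fast-gating subunit of early and interneuron receptors, read 7.51, 7.72 and 7.70 in wildtype and 6.88, 6.86 and 7.11 in transgenic arrays. The wildtype arrays were all the higher ones. The fall was 1.62-fold (-0.70 ± 0.10, adjusted p = 0.00206). Of the 14 GABAergic genes 2 fell, 9 had negative and 5 positive differences, and the median was -0.11. Whether the GABAergic genes bear on the Gria4 fall was not tested. On the other Gria4 probe sets the differences were -0.79 (adjusted p = 0.0608 over probe sets) and, under the array median in both genotypes, 0.15 (adjusted p = 0.369).

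Gria2, whose edited subunit makes AMPA receptors impermeable to calcium, and Gria3 did not pass on their brightest probe sets, at 0.13 ± 0.11 and -0.13 ± 0.10. Each had another probe set that rose, and these were singled out after their values were seen. Gria2 on 1 of its other probe sets read 8.64, 8.84 and 9.23 in wildtype and 9.60, 9.70 and 9.74 in transgenic arrays (0.78 ± 0.14, adjusted p = 0.0169 over probe sets). Gria3 on its other probe set read 4.26, 4.71 and 5.15 against 5.78, 5.98 and 5.86 (1.17 ± 0.20, adjusted p = 0.0111 over probe sets). On both sets the genotypes did not overlap, and wildtype replicate 3 was the wildtype array nearest to the transgenic ones. Where these probe sets lie in the transcripts was not examined here. Averaged over its probe sets, Gria2 was at 0.40 (adjusted p = 0.0660) and Gria3 at 0.52 (adjusted p = 0.0278). In that fit Gria1 was at 0.77 and Gria4 at -0.44.

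**Figure D2:**
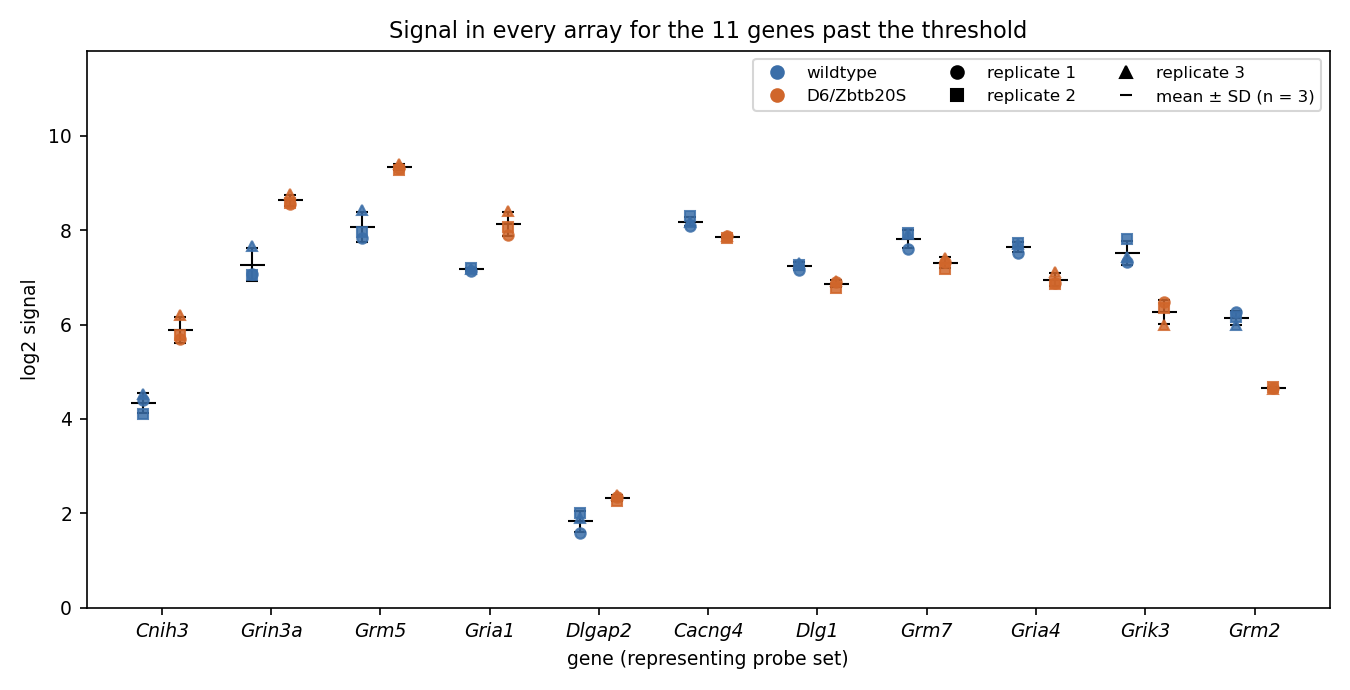
Log2 signal (vertical axis) in every array for the 11 genes past the threshold, ordered from the largest rise to the largest fall, with circles, squares and triangles for replicates 1, 2 and 3 and the mean ± SD of each genotype (n = 3). In all 11 genes the 3 transgenic arrays sit on one side of the 3 wildtype arrays, and Dlgap2 sits far below the other 10 genes in both genotypes. The genes were picked by adjusted p on these same arrays, which favours such separation, so it is no further support.

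The proteins that accompany AMPA receptors held the largest rise of the 46 genes. Cnih3, a cornichon that slows AMPA receptor deactivation, read 4.40, 4.10 and 4.52 in wildtype and 5.69, 5.77 and 6.20 in transgenic arrays. The highest wildtype array lay 1.17 below the lowest transgenic one. Cnih3 was 2.92-fold higher (1.55 ± 0.15, adjusted p = 0.000199). The other cornichons did not pass: Cnih2, which has the same role in hippocampal neurons, was at 0.12 ± 0.08, the secretory cargo receptor gene Cnih1 at -0.11 ± 0.10 and Cnih4 at 0.06 ± 0.10. Of the 7 gamma subunit genes only Cacng4 passed, a TARP gene of the developing brain, at 8.09, 8.29 and 8.17 in wildtype and 7.88, 7.83 and 7.88 in transgenic arrays (-0.32 ± 0.08, adjusted p = 0.0434). The call of Cacng4 was lost without any array except wildtype replicate 1 (adjusted p up to 0.193). Its other probe set had a positive difference of 0.43 ± 0.14 (adjusted p = 0.134 over probe sets), and Cacng4 itself was at 0.0662 when adjusted over probe sets. Cacng2 (stargazin) was at 0.29 ± 0.09 without overlap between genotypes (adjusted p = 0.0781). Cacng3, Cacng5, Cacng6, Cacng7 and Cacng8, the last the main hippocampal TARP, lay between -0.25 and 0.19.

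Among the 5 kainate receptor genes, Grik3 was the member that changed. It encodes a subunit with low glutamate affinity. The wildtype values were 7.33, 7.81 and 7.42, and the transgenic values 6.47, 6.36 and 5.98. Every transgenic array lay at least 0.85 below every wildtype array. The fall was 2.37-fold (-1.25 ± 0.15, adjusted p = 0.000879). The second Grik3 probe set lay under the array median in both genotypes and did not pass (-0.07 ± 0.11). Averaged over both sets, Grik3 was lower by 0.66 on the log2 scale (adjusted p = 0.00216). Grik1 (-0.13 ± 0.19), Grik2 (0.28 ± 0.10) and Grik4 (0.09 ± 0.09) did not pass, nor did Grik5 (-0.26 ± 0.10), whose subunit joins the low-affinity ones in heteromers.

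Of the 6 NMDA receptor genes measured, Grin3a rose and 5 did not pass. Grin3a encodes a glycine-binding subunit of juvenile receptors that lowers calcium permeability and magnesium block. It read 7.07, 7.06 and 7.67 in wildtype and 8.56, 8.58 and 8.76 in transgenic arrays. The genotypes were 0.89 apart at their nearest arrays. Grin3a was 2.58-fold higher (1.37 ± 0.16, adjusted p = 0.000562), and its 2 other probe sets rose too (1.20 ± 0.11 and 1.08 ± 0.18, adjusted p = 0.000683 and 0.0115 over probe sets). Wildtype replicate 3, at 7.67, lay 0.61 above the mean of the other wildtype arrays. Without it the difference was 1.57. Grin2b, the main GluN2 gene of the newborn forebrain, read 8.82, 8.97 and 9.28 in wildtype and 9.13, 9.16 and 9.85 in transgenic arrays, with overlap between genotypes (0.36 ± 0.19, adjusted p = 0.340). None of its other probe sets passed. Their differences were 0.39 ± 0.12 without overlap (adjusted p = 0.116 over probe sets), and 0.15 and -0.02 with overlap. The later-rising Grin2a and the Grin2c gene lay under the array median in both genotypes, and their differences were 0.02 and -0.02. Grin2d was at -0.0036 ± 0.09 and Grin3b at 0.04 ± 0.10. The delta receptor gene Grid1 was at 0.19 ± 0.13 (adjusted p = 0.454).

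Of 6 metabotropic receptor genes 1 rose, Grm5 of group I, and 2 fell, Grm2 of group II and Grm7 of group III. Grm5, whose receptor signals through phospholipase C and binds Homer, read 7.82, 7.96 and 8.42 in wildtype and 9.32, 9.28 and 9.41 in transgenic arrays. The groups were 0.86 apart at their nearest arrays. The rise was 2.41-fold (1.27 ± 0.14, adjusted p = 0.000463). On its other probe set the values were 6.90, 7.10 and 7.98 against 8.93, 8.96 and 9.16 (1.69 ± 0.24, adjusted p = 0.00560 over probe sets). Wildtype replicate 3 was again the highest wildtype array on both sets, and without it the difference on the brightest set was 1.45. Over the 11 genes past the threshold, it was the wildtype array nearest to the transgenic mean in 4.

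Grm2, a presynaptic receptor that inhibits adenylate cyclase, read 6.27, 6.16 and 5.98 in wildtype and 4.66, 4.68 and 4.63 in transgenic arrays. The gap between genotypes, 1.30, was the widest of the 11 genes, and Grm2 averaged 6.14 ± 0.14 (SD, n = 3) in wildtype against 4.66 ± 0.03 (SD, n = 3) in transgenic tissue. Grm2 was 2.79-fold lower (-1.48 ± 0.09, adjusted p = 1.5e-05) and had no other probe set under its symbol alone. Grm3, the other group II receptor, was at 0.07 ± 0.18 (adjusted p = 0.870). In group III, Grm7 read 7.60, 7.93 and 7.91 in wildtype and 7.34, 7.18 and 7.41 in transgenic arrays and fell 1.42-fold (adjusted p = 0.0200). This receptor sits in the active zone of glutamate terminals. Dropping wildtype replicate 2 or either of D6/Zbtb20S replicates 1 and 2 took Grm7 past 0.05 (highest adjusted p = 0.0974), as did averaging its probe sets (-0.28, adjusted p = 0.0591). Grm4 (-0.12 ± 0.08) and Grm8 (-0.16 ± 0.08) did not pass.

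Of 13 postsynaptic scaffold genes 1 rose, 1 fell and 11 did not pass. Dlg1, which encodes the AMPA receptor-binding scaffold SAP97, read 7.15, 7.27 and 7.30 in wildtype and 6.91, 6.78 and 6.91 in transgenic arrays. The genotypes did not overlap, and the fall was 1.29-fold (-0.37 ± 0.08, adjusted p = 0.0232). Dlg1 kept its call when wildtype replicate 1 or D6/Zbtb20S replicate 3 was dropped and lost it with any other array dropped, with a highest adjusted p = 0.107. Neither of its other probe sets passed, and averaged over its sets Dlg1 was at -0.24 (adjusted p = 0.160). Dlg4, the gene of PSD-95, was at -0.21 ± 0.13, Dlg2 at -0.19 ± 0.09 and Dlg3 at 0.27 ± 0.10.

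Dlgap2, a SAPAP gene that links DLG proteins to Shank, rose from 1.59, 2.003 and 1.90 to 2.34, 2.26 and 2.39 (0.50 ± 0.11, adjusted p = 0.0221). Both means lay under the array median, where the scale may be compressed. The Dlgap2 call was lost without any 1 of the transgenic replicates 1, 2 or 3 (adjusted p up to 0.0893). Dlgap1 missed the threshold on its brightest probe set, with group means of 7.93 ± 0.01 (SD, n = 3) for wildtype against 8.24 ± 0.11 (SD, n = 3) for transgenic arrays (0.31 ± 0.08, adjusted p = 0.0518). All 6 Dlgap1 probe sets had positive differences, and 1 of them rose by 1.14 ± 0.11, from 5.42, 5.29 and 5.55 to 6.37, 6.64 and 6.67 (adjusted p = 0.000784 over probe sets). Averaged over its probe sets, Dlgap1 was higher by 0.45 (adjusted p = 0.0154). Homer1, whose protein clusters group I metabotropic receptors, was at 0.26 ± 0.10 (adjusted p = 0.164), while 1 of its other probe sets rose from 7.22, 7.18 and 7.04 to 7.67, 7.67 and 7.61 (0.50 ± 0.08, adjusted p = 0.00964 over probe sets). The Dlgap1 and Homer1 sets were singled out after their values were seen. Homer2 (0.10 ± 0.10), Homer3 (0.33 ± 0.12), Shank1 (0.02 ± 0.11), Shank3 (0.03 ± 0.13), Dlgap3 (-0.05 ± 0.10) and Dlgap4 (-0.14 ± 0.11) did not pass.

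The families were also read over every probe set. They had 92 probe sets, of which 13 were called higher and 5 lower, 19.6% beside 5.52% of all probe sets. Of 27 genes with several probe sets, 3 that passed on the brightest set had another set called the same way (Gria1, Grin3a and Grm5), and 4 that did not pass there had another set called (Gria2, Gria3, Dlgap1 and Homer1, all higher). No gene had probe sets called in opposite directions.

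**Figure D3:**
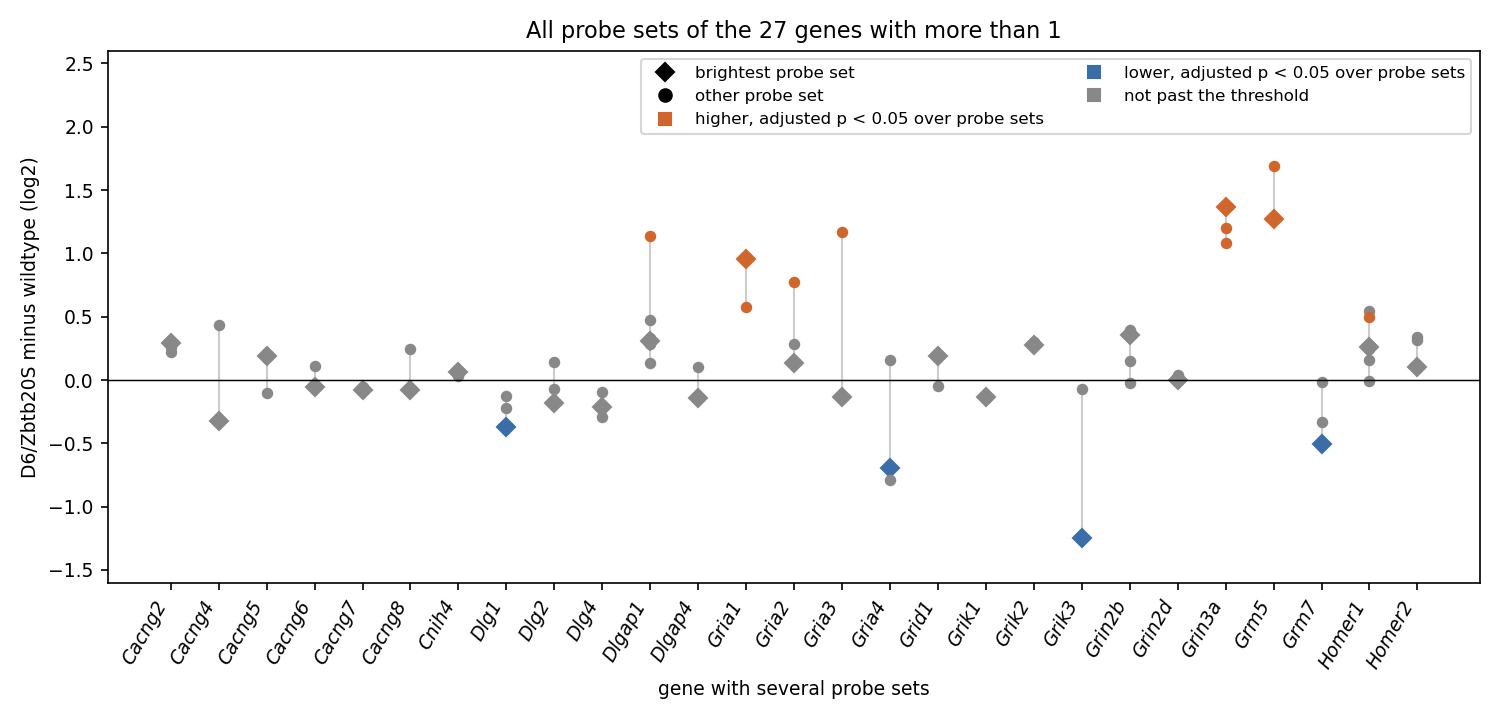
Difference between genotypes (log2, vertical axis) on every probe set of the 27 genes with more than 1, with diamonds for the brightest set and circles for the others. All sets of Gria1, Grin3a and Grm5 were called higher, while the sets of Gria3 (-0.13 and 1.17) and of Grik3 (-1.25 and -0.07) lie far apart.

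The 35 genes that did not pass had differences from -0.26 (Grik5) to 0.36 (Grin2b), and adjusted p from 0.0518 to 0.990. Among them 6 had no overlap between genotypes: Dlgap1, Cacng2, Grik2, Dlg3 and Homer1 with higher and Grm8 with lower transgenic values. Over all genes tested, those past the threshold included, 26.1% had no overlap. Under the array median in both genotypes lay 6 of the 46 genes, Grin2a, Grin2c, Grm8, Cacng6, Shank1 and Dlgap2, so differences in these may be compressed.

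Of the 11 calls, 7 held in each of the 6 fits that left out 1 array: Gria1, Gria4, Grik3, Grin3a, Grm5, Grm2 and Cnih3. The number of genes called lower dropped from 6 to 3 without wildtype replicate 2, without D6/Zbtb20S replicate 1 and without D6/Zbtb20S replicate 2. Without wildtype replicate 3, whose Zbtb20 signal stood apart, 5 genes were higher and 5 lower, with 9 of the 11 calls kept, Cacng4 and Dlg1 lost and Cacng3 added. In an ordinary linear model, which pools no variance over genes, Grm2 alone kept its call (adjusted p = 0.0209), and the other 10 lay between 0.0681 and 0.182.

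Other genes of the glutamate synapse were read from lists of receptor partners. Of 84 measured, 9 rose and 11 fell, with a median difference of -0.02. Over all genes, 7.71% passed, 4.06% higher and 3.64% lower, with the same median to 2 decimals. Among 22 AMPA receptor trafficking and assembly genes 2 rose and 4 fell. The fusion ATPase gene Nsf, whose product binds an AMPA receptor tail, was 1.83-fold higher (adjusted p = 0.000872) and the auxiliary subunit gene Shisa6 1.64-fold higher (adjusted p = 0.00547). The related Shisa9 fell 2.69-fold (adjusted p = 0.000200), Vwc2l 2.21-fold, Olfm3 2.20-fold and Olfm2 1.49-fold, the last 3 encoding secreted proteins found in AMPA receptor complexes. Shisa9 and Olfm3 were read on probe sets of the _x_at type, which can match other transcripts, and Vwc2l lay under the array median in both genotypes.

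Both kainate receptor auxiliary genes fell beside Grik3. Neto1 read 7.71, 7.56 and 7.77 in wildtype and 7.35, 7.34 and 7.16 in transgenic arrays (-0.40 ± 0.09, adjusted p = 0.0272), and Neto2 8.92, 8.97 and 8.75 against 8.43, 8.43 and 8.18 (-0.53 ± 0.10, adjusted p = 0.0101). The arrays of the genotypes did not overlap in either gene. Neto1 kept its call when wildtype replicate 2 was dropped and lost it with any other array dropped (highest adjusted p = 0.0811), and Neto2 lost it only without wildtype replicate 2 (adjusted p = 0.0565). Of the 11 kainate and NMDA receptor partners 1 rose, the serine racemase gene Srr (0.32 ± 0.08, adjusted p = 0.0338), which makes the NMDA receptor co-agonist D-serine. Averaged over its probe sets, Srr was at 0.09 (adjusted p = 0.517). Leaving out wildtype replicate 3 kept its call, and leaving out any other array lost it (highest adjusted p = 0.157), as did setting the array medians equal.

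Synaptic organisers that bind glutamate receptors gave 2 rises and 2 falls of 10. Cbln4, a cerebellin of the C1q family, read 4.68, 4.73 and 4.35 in wildtype and 3.07, 2.69 and 2.98 in transgenic arrays, a fall of 3.19-fold (adjusted p = 5.1e-05), with transgenic signal under the array median. Its relative Cbln2 fell 1.95-fold (adjusted p = 0.000524), while Cbln1, a ligand of delta receptors, was 1.32-fold higher (adjusted p = 0.0394). Cbln1 kept its call when wildtype replicate 3 or D6/Zbtb20S replicate 1 was dropped and lost it with any other array dropped (highest adjusted p = 0.137). Elfn2, whose protein binds group III metabotropic receptors across the synapse, was 2.08-fold higher (adjusted p = 0.00221).

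Of 24 scaffold partners 2 rose and 2 fell. Lin7a, a PDZ scaffold gene, read 6.41, 6.62 and 6.80 in wildtype and 7.96, 7.95 and 8.03 in transgenic arrays (1.37 ± 0.10, adjusted p = 4.7e-05), and all 3 of its probe sets rose. Sipa1l1, a Rap GTPase-activating protein of spines, rose 2.56-fold (adjusted p = 0.000201). Prickle2, a planar polarity protein of the postsynaptic density, read 7.64, 7.86 and 7.76 against 6.32, 6.21 and 6.35 (-1.46 ± 0.09, adjusted p = 1.3e-05), and the Rac exchange factor Tiam1 fell 1.28-fold (adjusted p = 0.0378). Tiam1 kept its call when wildtype replicate 1 or D6/Zbtb20S replicate 3 was dropped and lost it with any other array dropped (highest adjusted p = 0.163). Averaging its probe sets lost it too (adjusted p = 0.0797).

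In the signalling of metabotropic receptors 2 of 12 genes rose and 1 fell, beside the rise of Grm5. The phospholipase C gene Plcb4 fell 1.99-fold (-0.99 ± 0.11, adjusted p = 0.000562), with its probe sets ranging from -0.99 to 0.11. Prkca, a protein kinase C gene, was 1.66-fold higher (adjusted p = 0.00116). Trpc5, a receptor-activated cation channel gene with wildtype signal under the array median, was 1.55-fold higher (adjusted p = 0.0265), a call that held when wildtype replicate 3 or D6/Zbtb20S replicate 2 was dropped but not with any other array dropped (highest adjusted p = 0.119). Of 5 genes of RNA editing and translation control of receptor transcripts 0 passed in limma, also at an unadjusted p under 0.05. In the ordinary linear model 3 of the 20 partner genes kept their calls, Lin7a, Prickle2 and Cbln4.

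**Figure D4:**
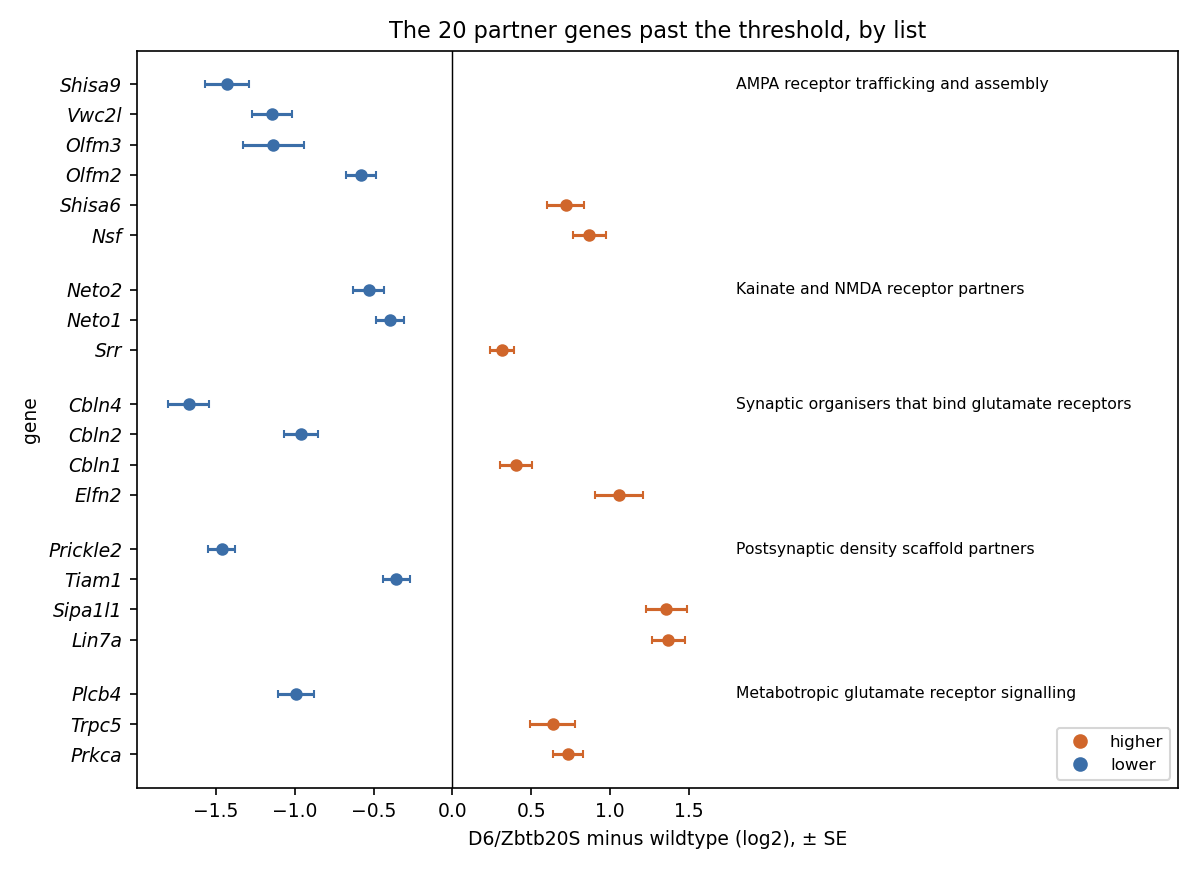
Difference between genotypes (D6/Zbtb20S minus wildtype, log2, horizontal axis) with its standard error for the 20 partner genes past the threshold, grouped by list. Each of the 5 lists shown holds both rises and falls, from -1.67 for Cbln4 to 1.37 for Lin7a.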

How the data were processed

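Affymetrix arrays measured mRNA in 6 pools, 3 wildtype and 3 D6/Zbtb20S. The authors deposited 1 log2 value per probe set and array. The submitters' processing notes name RMA and limma without versions or order, and the log2 scale was read from the range of the values. Array medians lay between 3.83 and 3.97, so the last scaling and any centring stay unknown. RMA compresses changes near the floor, and the number of arrays limits precision. The 64 control probe sets were left out of 45101. Gene names came from the platform annotation: 34945 probe sets had 1 symbol, 932 several and 9160 none in it. The GRCm38.p6 gene table held all 46 genes, matched on gene ID.

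Differences are D6/Zbtb20S minus wildtype from limma 3.58.1 in R 4.3.3 (lmFit, eBayes), with Benjamini-Hochberg adjustment over 18193 genes, or over 45037 probe sets where said, and a threshold of 0.05. The ± after a difference is its standard error. The fit was tested on simulated data. Figures were drawn with matplotlib 3.10.9. The genes and the lists were chosen with earlier results of these data known. Every gene of the families past the threshold is given in all arrays. Those that missed it are named with values where the genotypes did not overlap and the difference was at least 0.3. The others are given by difference or range. Outside that rule, Grin2b and the probe sets of Gria2, Gria3, Dlgap1 and Homer1 singled out after their values were seen are given in all arrays. Partner genes past the threshold are all named. Alternatives left out each array in turn, added a replicate block, weighted the arrays, let the prior variance follow intensity, averaged the probe sets of a gene, or fitted an ordinary linear model. Others set the array medians equal, quantile-normalized the arrays, or kept only probe sets that exceeded their array's median on 3 or more arrays.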

Additional observations from a re-analysis of the deposited data

How the results depend on the processing

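Of the 14 alternative fits, some left both counts of receptor and scaffold genes within 1.5 times of the reported 5 higher and 6 lower. They were equal array medians, quantile normalization, the intensity trend, the filter on dim probe sets and the replicate block. The fits without wildtype replicate 1, without wildtype replicate 3 and without D6/Zbtb20S replicate 3 did so too. With array weights 8 were higher, and with the mean of the probe sets of a gene 8 were higher and 3 lower, Dlgap1, Gria3 and Homer1 being added. The ordinary linear model gave 0 higher and 1 lower (7 and 7 at an unadjusted p under 0.05), where limma gave 5 and 6. At that setting 1 partner gene was higher and 2 were lower, and over all genes 117 were higher and 150 lower, against 739 and 663 as reported. Array weights gave 1404 higher and 1303 lower genes. With 1 array left out, the families had 4 to 5 genes higher and 3 to 6 lower, all genes 376 to 922 higher and 401 to 634 lower, and the partner genes 6 to 12 higher and 9 to 12 lower. Cacng4 turned to 0.0555 when its probe sets were averaged (adjusted p = 0.777). With the filter on dim probe sets 40 of the 46 genes were tested and Dlgap2 had no value, and 11.9% of all genes passed. With the replicate block 5 genes of the families were higher and 5 lower, Cacng4 being lost, and of the partner genes Neto1, Srr and Tiam1 lost their calls. In that fit 9 partner genes were higher and 10 lower, so others, not named here, gained calls. The replicate numbers are not shown to pair the samples: the deviations of same-numbered arrays correlated at -0.22, 0.18 and -0.01 over 18193 genes, and 2 of 6 arrays correlated best with their own number. Signal near the array median limits what can be read for the dim genes.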
